A study of Mus musculus with 8 samples.

Results

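Cyclins are the regulatory subunits of the cyclin-dependent kinases (CDKs), and their transcripts were examined here together with those of the kinases of the G1 phase in mouse esophageal epithelium. The 10 genes were given as a list of names, drawn up when earlier results of these data were known: the D-type cyclins Ccnd1, Ccnd2 and Ccnd3, their partner kinases Cdk4 and Cdk6, the E-type cyclins Ccne1 and Ccne2, and the cyclins Ccna2, Ccnb1 and Ccnb2 of S phase, G2 and mitosis. All 10 were found among the 55276 gene symbols of the count table, and all 10 passed the filter on low counts that left 17344 genes for testing.

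RNA was sequenced in bulk from cells of C57BL6 mice aged 14 to 15 weeks, for which the labels name no genetic change or drug. Epithelial cells negative for the dead-cell stain DAPI and positive for integrin beta-1, a surface protein of basal cells, were sorted by Cyto-ID, which stains autophagic vesicles. Each of 4 animals (Female1, Female2, Male1 and Male2) gave 1 Cyto-ID Low and 1 Cyto-ID High library, so there were 4 libraries per fraction. The series asks how cells with many autophagic vesicles differ from the others, and its title names limited proliferation.

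In the textbook account of the cycle, D-type cyclins rise in response to growth signals and activate CDK4 and CDK6, which begin to phosphorylate the retinoblastoma protein. This frees E2F factors, which raise the transcription of the E-type cyclins and then of cyclin A2. Cyclins A2, B1 and B2 are made from S phase to mitosis and destroyed before division ends, so their transcripts mark cycling cells. In stratified epithelia such as that of the esophagus, division takes place in the basal layer, and cells leave the cycle as they move up.

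The libraries held 26285150 to 28599954 counts in Cyto-ID Low and 27486049 to 29301054 in Cyto-ID High. All 8 basal keratinocyte markers (Krt5, Krt14, Krt15, Trp63, Sox2, Itgb4, Itga6 and Col17a1) were lower in High, and all 8 suprabasal markers (Krt4, Krt13, Sbsn, Krtdap, Tgm1, Tgm3, Ivl and Lor) were higher. The summed level of the basal markers was 20628 to 24516 CPM (counts scaled by library size, with TMM factors) in the Low libraries and 2721 to 4390 in the High libraries, and that of the suprabasal markers was 9096 to 25981 and 141910 to 238879. No basal and no suprabasal marker was at 0 in any library, so presence alone does not tell the fractions apart. The protocol describes both fractions as basal cells, but the suprabasal markers were far higher in High. The part of this shift between layers in the differences below was not tested. In bulk RNA, fewer cells of a type and less RNA per cell cannot be told apart. The summed level of 6 fibroblast markers was 308 to 480 CPM in Low and 36.6 to 456 in High, and was lowest in the High library of Male2. Of these 6 genes 1 was called lower in High, as was 1 of 6 muscle markers (edgeR, adjusted p under 0.05). Of 5 tested leukocyte markers 1 was higher, and 0 of 5 endothelial markers passed. Of all tested genes 25.3% were called lower and 23.4% higher.

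Female2 stood apart in markers of gastric epithelium. The summed level of these 8 genes, none of which passed the filter, was 18.6 CPM in Low Female2 and 115 CPM in High Female2, with none of the 8 at 0. In the other 6 libraries it was 0.211 to 1.03 CPM, with 4 to 6 of the 8 at 0. Without High Female2, or without Low Female2, 7 of the 10 genes described here were still called lower, and the calls of Cdk4 and Ccne1 were lost. Of all tested genes, 4111 of 17904 were called lower without High Female2 and 3968 of 17658 without Low Female2. The loss was not particular to Female2, since the same calls were lost without High Female1, High Male1 or Low Male2.

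Of the 10 genes, 9 were lower in Cyto-ID High and 0 higher past the threshold (edgeR's quasi-likelihood test, p adjusted by Benjamini-Hochberg under 0.05), where 25.3% of all tested genes were called lower and 48.7% were called in either direction. The median log2 fold change of the 10 was −1.50, beside −0.09 over all tested genes. The cyclins of S phase, G2 and mitosis fell most, together with Ccnd2, and Ccnd3 did not pass. In 8 of the 10 genes the highest High library lay below the lowest Low library, which was so for 24.9% of all tested genes, while 23.6% lay apart in the other direction and 48.6% in either. In 9 of the 10 genes High was lower in all 4 animals, as in 34.4% of all tested genes. The 10 genes together took 0.0756% to 0.0955% of all counts in the Low libraries and 0.0163% to 0.0234% in the High libraries.

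**Figure D1:**
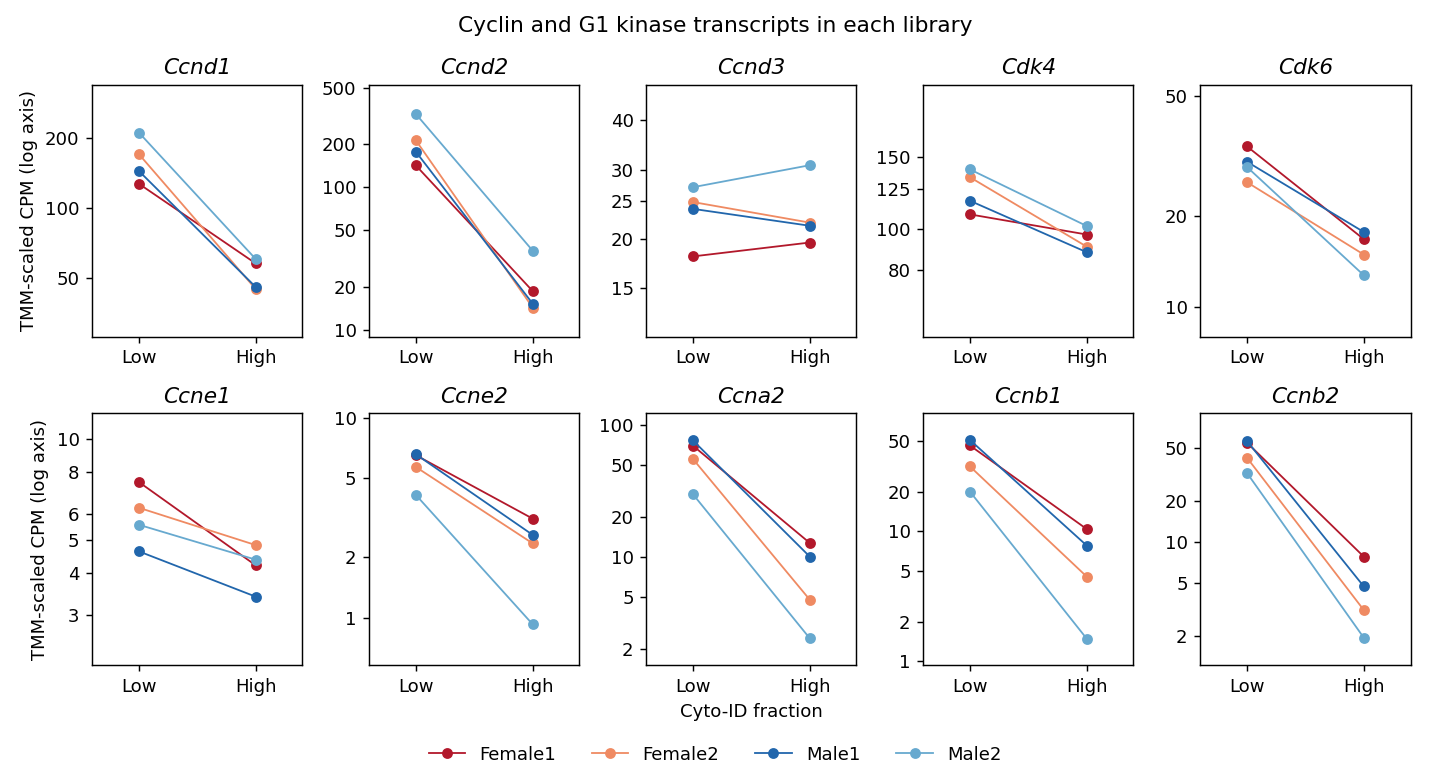
TMM-scaled CPM (log axis, 1 scale per panel) of the 10 genes in the Cyto-ID Low and High library of each animal, joined by a line per animal. Every line falls except those of Ccnd3, where Female1 and Male2 rise slightly.

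The D-type cyclins, the sensors of growth signals, are described first: Ccnd1 and Ccnd2 fell, and Ccnd3 did not pass the test. Ccnd1, on chr7:144929931-144939925, is the form most widely expressed in epithelia. It was at 127, 170, 144 and 210 CPM in the Low libraries of Female1, Female2, Male1 and Male2, and at 57.8, 44.9, 45.8 and 60.4 CPM in their High libraries. All High libraries lay below all Low libraries, and Male2 was the highest in both fractions. The mean fell from 163 ± 36 to 52.3 ± 8.0 CPM (SD over 4 libraries each), or −1.63 as log2 fold change (SE 0.19, adjusted p 9.5e-05 in edgeR), or 3.10-fold.

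Ccnd2, on chr6:127125162-127152193, encodes a second D-type cyclin that binds the same kinases. It was at 142, 213, 177 and 326 CPM in the Low libraries of Female1, Female2, Male1 and Male2, where it had more counts than any other member. In the High libraries of the same animals it was at 18.7, 14.3, 15.3 and 35.9 CPM. The groups were far apart, and again Male2 was highest in both. The mean fell from 214 ± 80 to 21.0 ± 10.1 CPM (SD over 4 libraries each), or −3.36 as log2 fold change (SE 0.32, adjusted p 3.1e-05 in edgeR), or 10.3-fold. Only 0.888% of all tested genes had a lower log2 fold change. Without High Male2 the log2 fold change was −3.67.

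Ccnd3, on chr17:47505051-47599691, encodes the third D-type cyclin, best known from blood cells. It was at 18.0, 24.8, 23.8 and 27.0 CPM in the Low libraries of Female1, Female2, Male1 and Male2, and at 19.6, 22.0, 21.6 and 30.8 CPM in High. The groups overlapped, 2 animals were higher and 2 lower in High, and differences between animals were larger than that between the fractions. The log2 fold change was −0.002 (SE 0.16, adjusted p 0.99 in edgeR), with means of 23.4 ± 3.8 and 23.5 ± 5.0 CPM (SD over 4 libraries each). This value depends on how libraries are scaled. When they were scaled by their totals only, Ccnd3 had a log2 fold change of −0.58 (adjusted p 0.0059 in edgeR), while the median of all tested genes was −0.64.

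Since the ratio of genes within 1 library does not depend on scaling, the D-type cyclins were also compared as ratios of counts. In the Low libraries there were 0.89, 0.80, 0.81 and 0.65 counts of Ccnd1 per count of Ccnd2 (Female1, Female2, Male1, Male2), and in the High libraries there were 3.09, 3.13, 3.00 and 1.68. Each High ratio lay above each Low ratio. The ratio of Ccnd1 to Ccnd3 went the other way, from 6.04 to 7.77 in Low to 1.96 to 2.95 in High, and that of Ccnd2 to Ccnd3 from 7.43 to 12.0 in Low to 0.65 to 1.17 in High. High minus Low on the log2 scale was 1.76 ± 0.26, −1.62 ± 0.32 and −3.38 ± 0.28 for these 3 ratios (SD of the differences in 4 animals). Each had a two-sided exact permutation p of 0.0286, the smallest that 4 against 4 libraries can give, and an adjusted p of 0.0571 over the 8 ratios compared, so none passed after adjustment. This test compares the libraries without regard to the animal, and so do the tests of the other ratios below. Within animals, each of the 8 ratios differed in the same direction in all 4, and the difference of Ccnd2 to Ccnd3 was −3.72 to −3.04.

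Divided by the length of the merged exons, Ccnd1 made up 58.2% ± 2.9 of the D-type cyclin transcripts in Low and 69.7% ± 4.5 in High (SD, n = 4 each, CPM per kilobase). The share of Ccnd2 was 37.3% ± 3.3 in Low and 13.5% ± 3.6 in High. That of Ccnd3 was 4.6% ± 0.6 and 16.8% ± 2.2. With this length none of the 3 shares overlapped between the fractions, and Ccnd1 had the largest share in every library. With the longest transcript as the length, the share of Ccnd3 was 7.4% ± 1.0 in Low and 26.1% ± 3.1 in High, and Ccnd1 was still the largest. The Ccnd1 share then overlapped, at 49.0% to 55.6% in Low and 54.2% to 65.8% in High.

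**Figure D2:**
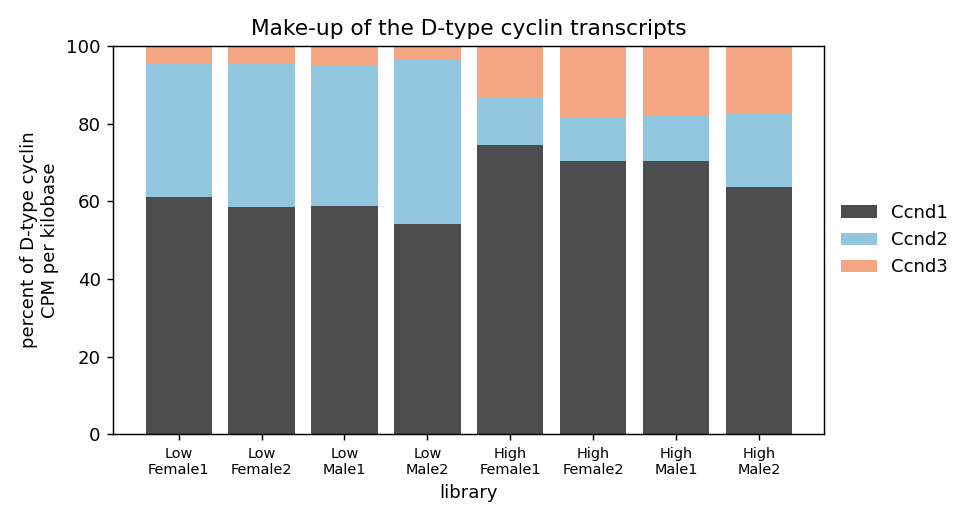
Share of Ccnd1, Ccnd2 and Ccnd3 (percent of their summed CPM per kilobase of merged exons) in each of the 8 libraries. The Ccnd2 share is 34.2% to 42.0% in the Low libraries and 11.2% to 18.9% in the High libraries, where the Ccnd3 share is 13.5% to 18.5%.

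The G1 kinases had log2 fold changes closer to 0 than the cyclins Ccnd1 and Ccnd2 that activate them, but further from 0 than Ccnd3 (−0.002). These differences were not tested. Cdk4, on chr10:127063534-127067920, was at 109, 134, 117 and 140 CPM in the Low libraries of Female1, Female2, Male1 and Male2 and at 97.2, 90.9, 88.1 and 102 CPM in High. The groups did not overlap but lay close, with Low Female1 only slightly above High Male2. The mean went from 124.9 ± 14.3 to 94.5 ± 6.2 CPM (SD over 4 libraries each), or −0.40 as log2 fold change (SE 0.14, adjusted p 0.0354 in edgeR). This call did not hold under DESeq2 (adjusted p 0.0606), relative log expression factors in edgeR (adjusted p 0.0776) or with no filter (adjusted p 0.0733 in edgeR). It was also lost without High Female1 (adjusted p 0.0543), High Female2 (0.0754), High Male1 (0.105), Low Female2 (0.100) or Low Male2 (0.114). Of 18 alternatives Cdk4 passed in 10, among them the fit with the animal as a block (adjusted p 0.0228 in edgeR), and did not pass in 8.

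Cdk6, on chr5:3341485-3531008, encodes the second kinase that D-type cyclins activate. It was at 34.1, 25.9, 30.3 and 29.1 CPM in the Low libraries of Female1, Female2, Male1 and Male2, and at 16.7, 14.9, 17.7 and 12.7 CPM in High. The groups did not overlap, and Male2 had the lowest High library. The mean fell from 29.8 ± 3.4 to 15.5 ± 2.2 CPM (SD over 4 libraries each), or −0.94 as log2 fold change (SE 0.16, adjusted p 0.00075 in edgeR). The ratio of Cdk4 to Cdk6 counts was 3.19 to 5.16 in Low and 4.97 to 8.01 in High, which overlapped (exact permutation p 0.0571, adjusted 0.0914), although it was higher in High in all 4 animals, by 0.24 to 0.86 on the log2 scale. Per kilobase, Cdk4 made up 94.7% ± 1.1 of the 2 kinases in Low and 96.3% ± 0.7 in High (SD over 4 libraries each).

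The E-type cyclins activate CDK2 at the entry into S phase, and both were low. Ccne1, on chr7:38097984-38107534, was at 7.44, 6.24, 4.63 and 5.55 CPM in the Low libraries of Female1, Female2, Male1 and Male2 and at 4.21, 4.83, 3.39 and 4.37 CPM in High. Each animal was lower in High, but Low Male1 lay below High Female2, so the groups overlapped. The log2 fold change was −0.50 (SE 0.19), just past the threshold (adjusted p 0.0493 in edgeR). It did not pass without the covariate (adjusted p 0.0557 in edgeR), under DESeq2 (0.0876), with relative log expression factors (0.0773) or with no filter (0.144). Leaving out a library ended the call for High Female1 (adjusted p 0.124 in edgeR), High Female2 (0.0892), High Male1 (0.130), Low Female1 (0.0859), Low Female2 (0.0605) and Low Male2 (0.111). Of 18 alternatives Ccne1 passed in 8, among them the fit with the animal as a block (adjusted p 0.0297 in edgeR), and did not pass in 10.

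Ccne2, on chr4:11191351-11204779, was at 6.49, 5.66, 6.55 and 4.11 CPM in the Low libraries of Female1, Female2, Male1 and Male2 and at 3.13, 2.35, 2.59 and 0.926 CPM in High. The groups did not overlap, and the High library of Male2, with 18 counts, was by far the lowest. The log2 fold change was −1.36 (SE 0.32, adjusted p 0.0060 in edgeR), and −1.10 without that library. The ratio of Ccne1 to Ccne2 counts was 0.71 to 1.35 in Low and 1.31 to 4.62 in High (exact permutation p 0.0857, adjusted 0.0980). The highest value was that of High Male2, and the other High libraries reached 2.05. High minus Low was 0.95 on the log2 scale, and 0.23 to 1.77 within animals. With High Male2 left out and Low Male2 kept it was 0.55, a value that does not compare the same animals.

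Ccna2, Ccnb1 and Ccnb2, which drive cells from S phase through mitosis, fell together. Ccna2, on chr3:36564865-36572150, was at 69.8, 55.3, 76.5 and 29.9 CPM in the Low libraries of Female1, Female2, Male1 and Male2 and at 12.8, 4.75, 10.1 and 2.42 CPM in High. The groups did not overlap, and in both fractions Female2 and Male2 were lower than Female1 and Male1. The mean fell from 57.9 ± 20.6 to 7.501 ± 4.754 CPM (SD over 4 libraries each), or −2.95 as log2 fold change (SE 0.48, adjusted p 0.00069 in edgeR), or 7.73-fold.

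Ccnb1, on chr13:100778650-100786570, encodes the main mitotic partner of CDK1. It was at 45.9, 31.6, 50.6 and 20.3 CPM in the Low libraries of Female1, Female2, Male1 and Male2 and at 10.4, 4.48, 7.78 and 1.49 CPM in High, with the animals in the same order as for Ccna2 in Low. The mean fell from 37.1 ± 13.8 to 6.04 ± 3.89 CPM (SD over 4 libraries each), or −2.64 as log2 fold change (SE 0.50, adjusted p 0.0017 in edgeR). Transcripts of 4 pseudogenes align to Ccnb1 over at least 800 bases, the closest being Ccnb1-ps with 99.2% identity, and Ccnb1 held only 46.8% to 55.1% of the counts of all 5 genes in a library. Ccnb1-ps itself had a log2 fold change of −2.81 (SE 0.49, adjusted p 0.00099 in edgeR). With the counts of the pseudogenes summed into Ccnb1 the log2 fold change was −2.68. How the counting split reads among these genes is not given, and its part in the fall was not tested. The level of Ccnb1 is uncertain for the same reason.

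Ccnb2, on chr9:70407692-70421547, encodes the second mitotic B-type cyclin. It was at 54.5, 42.2, 56.1 and 32.5 CPM in the Low libraries of Female1, Female2, Male1 and Male2 and at 7.79, 3.13, 4.69 and 1.95 CPM in High. The mean fell from 46.3 ± 11.1 to 4.39 ± 2.53 CPM (SD over 4 libraries each), or −3.42 as log2 fold change (SE 0.37, adjusted p 6.2e-05 in edgeR), or 10.7-fold. The ratio of Ccnb1 to Ccnb2 counts was 0.62 to 0.90 in Low and 0.77 to 1.66 in High, and overlapped (exact permutation p 0.0857, adjusted 0.0980), although it was higher in High in all 4 animals, by 0.30 to 0.93 on the log2 scale. Ccnb2 and Ccnd2 had the lowest log2 fold changes of the 10 genes, but their order is not settled: Ccnd2 was the lower of them in 6 of 18 alternative analyses, for example without Low Male1 (−3.55 against −3.18) and without High Male2 (−3.67 against −3.18). For Ccna2, Ccnb1 and Ccnb2 the High libraries spread more widely than the Low ones, with coefficients of variation of 63.4%, 64.3% and 57.6% against 35.6%, 37.2% and 24.0%.

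**Figure D3:**
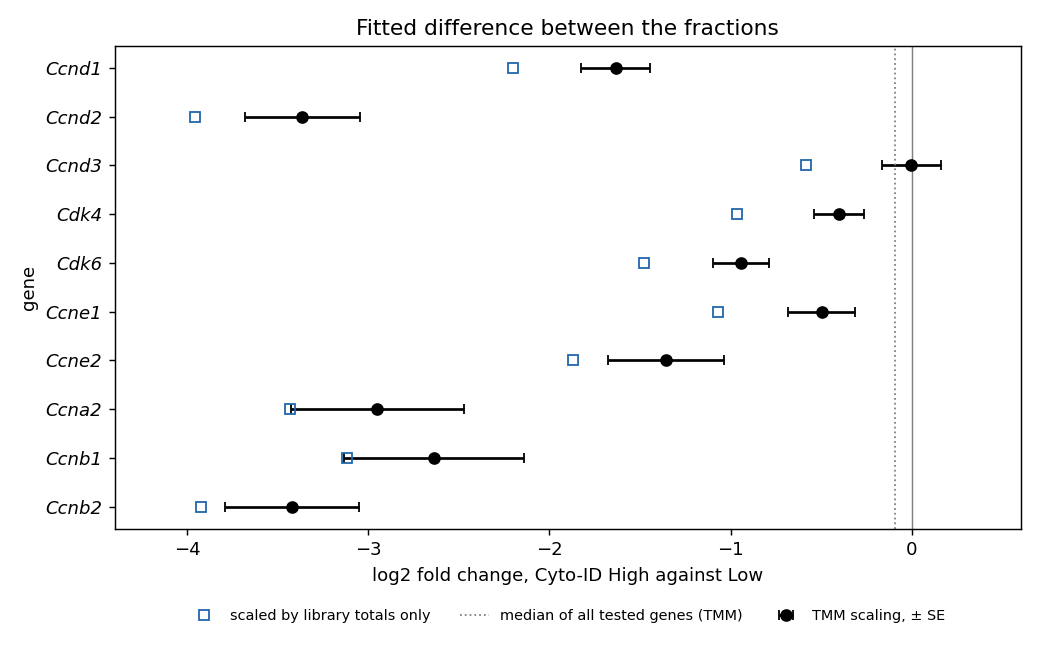
Fitted log2 fold change of each gene, Cyto-ID High against Low, with TMM scaling (filled points, bars are ± SE) and with scaling by library totals only (open squares). The dotted line is the median of all tested genes under TMM, −0.09. Totals move every gene to the left, Ccnd3 from −0.002 to −0.58.

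Promoter sequences were searched for motifs known from cell-cycle genes. RefSeq windows (build GRCm38.p6) of 250 bases before to 50 bases after a start site were matched for 6 of the 10 genes: Ccnb1, Ccnb2, Ccnd3 (with 2 windows), Ccne1, Cdk4 and Cdk6. Both strands were searched for the cell cycle homology region, CHR (TTTGAA and its variants, written TTCGAA and also TTTAAA), an element bound by complexes that regulate late cell-cycle genes, and for the CCAAT box (CCAAT), which the factor NF-Y binds. The 250 bases before the start of the B-type cyclins are shown because these are the cyclins of late phases for which a window was matched, with CHR and CCAAT matches in capitals, and those of Cdk4 as the kinase whose level changed least, with matches of the E-box CACGTG in capitals. Ccnb1 lies on the minus strand at chr13:100786487-100786736, Ccnb2 on the minus strand at chr9:70421555-70421804 and Cdk4 on the plus strand at chr10:127063285-127063534, each written 5′ to 3′ on the strand of its gene.
Ccnb1: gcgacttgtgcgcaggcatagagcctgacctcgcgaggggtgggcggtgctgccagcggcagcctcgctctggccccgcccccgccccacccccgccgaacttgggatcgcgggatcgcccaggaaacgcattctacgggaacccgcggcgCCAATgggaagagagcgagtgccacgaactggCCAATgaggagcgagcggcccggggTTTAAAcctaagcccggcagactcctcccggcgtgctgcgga
Ccnb2: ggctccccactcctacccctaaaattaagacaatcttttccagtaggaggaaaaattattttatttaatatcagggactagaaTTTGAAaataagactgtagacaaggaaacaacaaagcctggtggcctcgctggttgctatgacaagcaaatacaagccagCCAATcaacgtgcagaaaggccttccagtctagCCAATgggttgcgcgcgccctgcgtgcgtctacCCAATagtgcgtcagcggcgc
Cdk4: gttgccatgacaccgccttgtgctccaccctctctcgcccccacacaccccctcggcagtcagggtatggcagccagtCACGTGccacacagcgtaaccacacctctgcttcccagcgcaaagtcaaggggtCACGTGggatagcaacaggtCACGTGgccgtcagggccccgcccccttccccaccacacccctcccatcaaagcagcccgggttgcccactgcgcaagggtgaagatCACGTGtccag

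Positions give the first base of a match on the strand of the gene, where −1 is the base before the start site. Ccnb1 had CCAAT boxes at −99 and −67, followed by TTTAAA at −42. Ccnb2 had CCAAT boxes at −87, −54 and −21, and TTTGAA at −167 and at 5, the last lying beyond the stretch shown. No match overlapped another. Of all 32851 windows, 11.7% held at least 2 CCAAT boxes, 3.37% at least 3 and 28.8% at least 1 CHR match. Other members held such matches too: 1 of the Ccnd3 windows held a CCAAT box and that of Ccne1 held TTTAAA.

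The Cdk4 window held 4 copies of CACGTG, the E-box to which Myc and related factors bind, at −172, −118, −98 and −11, and 8 of the 32851 windows (0.0244%) held at least 4. The Cdk6 window held 1 copy, where 7.15% of all windows held at least 1, and the other windows of members held none. An E2F motif (TTTGGCGC, TTTCCCGC, TTTGCCGC or TTTCGCGC) was found in 2.26% of all windows and in 0 of these 7.

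Levels of different genes were compared per kilobase of merged exons. In Low, Cdk4 was highest at 38.4 ± 4.4 CPM per kilobase, followed by Ccnd1 (34.6 ± 7.7), Ccnb2 (30.3 ± 7.3), Ccnd2 (22.8 ± 8.5), Ccna2 (14.2 ± 5.0) and Ccnb1 (8.8 ± 3.3, SD, n = 4). The other members followed at 1.63 to 2.67, with Ccne2 last. The place of Ccnb1 is uncertain, since it rests on its own counts, which were only 46.8% to 55.1% of the sum over it and its near-identical pseudogenes. The ranges of neighbours in this order overlapped over the 4 libraries from Cdk4 down to Ccnb1 and again from Ccnd3 down to Ccne2, and only Ccnb1 and Ccnd3 stood apart. In High, Cdk4 (29.1 ± 1.9) and Ccnd1 (11.1 ± 1.7, SD, n = 4) stood apart from all others, which lay at 0.64 to 2.87. With the longest transcript as the length, Ccnd2 came before Ccnb2 in Low, and Ccnd3 came next after Ccnd1 in High.

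Within the Low fraction, the D-type cyclins with Cdk4 and the later cyclins ranked the animals differently. In Low, Male2 and Female2 were the highest for Ccnd1, Ccnd2, Ccnd3 and Cdk4 and the lowest for Ccna2, Ccnb1, Ccnb2 and Ccne2. Cdk6, the other kinase of the D-type cyclins, ranked Female2 and Male2 lowest in both fractions, as the later cyclins did. Ccne1 followed neither order, with Low Female1 highest and Low Male1 lowest. In High, Male2 was again highest for the former 4 genes and lowest for the latter 4, but Female2 was the lowest for Ccnd1 and Ccnd2. There were 0.15 counts of the summed cyclins Ccna2, Ccnb1 and Ccnb2 per count of the summed D-type cyclins in Low Male2 and 0.32 in Low Female2, beside 0.59 and 0.53 in Female1 and Male1. In High the ratio was 0.05, 0.15, 0.32 and 0.27 in the same order of animals. It was lower in High in each animal, by 1.14 ± 0.36 on the log2 scale (SD, n = 4), but the groups overlapped (exact permutation p 0.257, adjusted 0.257). Within animals the difference was −1.66 to −0.88. With High Male2 left out and Low Male2 kept, the difference of the group means was −0.55, a value that does not compare the same animals. Relative to the E-type cyclins, Ccna2, Ccnb1 and Ccnb2 together had 8.55 to 16.4 counts per count in Low and 1.11 to 4.22 in High, with no overlap (exact permutation p 0.0286, adjusted 0.0571).

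After the mean of each fraction was subtracted, the genes most like each member over the 8 libraries were found among 9998 genes. For Ccna2 these were Aspm, a spindle pole gene, and the proliferation marker Mki67 (Pearson's r 0.998 and 0.991 over 8 libraries). For Ccnb1 they were Cdk1, its own kinase partner, and the spindle checkpoint gene Mad2l1 (0.997 and 0.995), and for Ccne2 Parpbp and the kinetochore gene Nuf2 (0.992 each). For Ccnb2 they were Ripk3 and Vrk1 (0.994 and 0.989). Ccnd1 and Cdk4 shared Tmem9 as a close gene (0.972 and 0.957). The closest to Ccnd2 was Khk (0.984), to Ccnd3 Tmem98 (0.990), to Ccne1 Pfkfb4 (0.934) and to Cdk6 Atp5md (0.968). These values describe 8 libraries from 4 animals, picked as the highest of many, and libraries of an animal share their source.

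The sexes were compared through the interaction of sex and fraction. No gene passed (0 of 17344, 0%, edgeR's quasi-likelihood test, 19 at an unadjusted p under 0.05), and of the 10 genes 0 had an unadjusted p under 0.05. The standard errors were largest for Ccnb1 and Ccna2, where the male minus female difference in log2 fold change was −0.54 (SE 1.00) and −0.24 (SE 0.97). For Cdk4 and Cdk6 it was −0.07 (SE 0.31) and −0.04 (SE 0.34). With the animal as a block, which the pairing allows, the differences were −0.68 (SE 0.43) for Ccnb1 and −0.26 (SE 0.44) for Ccna2, and again 0 of 17344 genes passed (38 at an unadjusted p under 0.05) and 0 of the 10 had an unadjusted p under 0.05. Both numbers of genes are well below the share that this threshold gives by chance, so with 2 animals per sex the absence of calls among the 10 says little.

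The other genes of the pathway were counted in 6 lists, which hold 72 genes, 70 of them tested. Past the threshold 32 were lower and 12 higher in High, together 62.9%, where 48.7% of all tested genes were called. The median log2 fold change was −0.32. When libraries were scaled by totals only, 52 were lower and 5 higher, where 8514 of all 17344 tested genes were lower and 2194 higher. With that scaling 20.5% of all called genes were higher in place of 48.0%.

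Among 11 partners and activators of CDKs, 5 were lower and 3 higher (72.7% called, beside 48.7% of all tested genes). Cdc25c, the phosphatase that activates CDK1 at mitosis, fell from 15.0 ± 6.2 to 1.77 ± 0.84 CPM (SD over 4 libraries each), or −3.07 as log2 fold change (SE 0.41, adjusted p 0.00020 in edgeR). Cdk1, the kinase bound by cyclins A2 and B, had a log2 fold change of −1.89 (SE 0.61, adjusted p 0.0279 in edgeR), and its call was lost without Low Female1 (adjusted p 0.0957), High Female2 (0.0824) or Low Male1 (0.116). Cdc37, a chaperone partner that helps CDK4 to fold, rose from 182 ± 18 to 414 ± 102 CPM (log2 fold change 1.18, SE 0.19, adjusted p 0.00065 in edgeR). Ccnh, a subunit of the CDK-activating kinase, rose by 0.70 on the log2 scale (adjusted p 0.0067 in edgeR, SE 0.17), and had 0.12 with totals only (adjusted p 0.526).

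Of 9 CDK inhibitors and inhibitory kinases, 4 were lower and 2 higher (66.7% called, beside 48.7% of all tested genes). Cdkn1a, which encodes the inhibitor p21, was at 182 to 395 CPM in the Low libraries and 976 to 1749 in the High libraries. It rose by 2.12 on the log2 scale (adjusted p 0.00011 in edgeR, SE 0.26), or 4.35-fold. Cdkn2b, which encodes p15, an inhibitor of CDK4 and CDK6, rose from 5.72 ± 1.71 to 21.9 ± 3.3 CPM (SD over 4 libraries each), by 1.94 on the log2 scale (adjusted p 9.9e-05 in edgeR, SE 0.23). Wee1, the kinase that holds CDK1 inactive, fell from 119 ± 44 to 16.0 ± 6.5 CPM (log2 fold change −2.87, SE 0.29, adjusted p 4.4e-05 in edgeR). Cdkn2d, which encodes the CDK4 and CDK6 inhibitor p19, had −1.42 (SE 0.22, adjusted p 0.00050 in edgeR), so inhibitors of the same kinases moved in opposite directions.

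Of the 13 genes of the Rb family and E2F, 8 were lower and 2 higher (76.9% called, beside 48.7% of all tested genes, of which 25.3% were lower and 23.4% higher). Rb1, the target of CDK4 and CDK6, rose from 40.8 ± 1.0 to 99.8 ± 32.4 CPM (SD, n = 4 each, log2 fold change 1.29, SE 0.22, adjusted p 0.00085 in edgeR). E2f1 fell by 1.62 on the log2 scale (adjusted p 0.0016 in edgeR, SE 0.30). Of 10 genes of cyclin degradation 8 were lower and 0 higher, beside the same 25.3% and 23.4% of all tested genes. Cdc20, which directs the destruction of B-type cyclins, fell from 112 ± 41 to 13.7 ± 6.1 CPM (log2 fold change −3.03, SE 0.37, adjusted p 0.00012 in edgeR).

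The last lists hold the other cyclins and CDKs, many of which act in transcription rather than in the cycle. Of 14 tested other cyclins 4 were lower and 2 higher, and of 13 other CDKs 3 were lower and 3 higher, or 42.9% and 46.2%, beside 48.7% of all tested genes. Ccni fell from 183 ± 26 to 56.5 ± 7.1 CPM (SD, n = 4 each, log2 fold change −1.69, SE 0.16, adjusted p 3.4e-05 in edgeR), and Ccnyl1 rose by 1.00 (SE 0.25, adjusted p 0.0081 in edgeR). Cdk18 fell by 1.91 on the log2 scale (adjusted p 0.00025 in edgeR, SE 0.26). Cdk8, the kinase of the Mediator complex, rose by 0.85 (SE 0.13, adjusted p 0.00055 in edgeR). With totals only, Ccnyl1 had 0.41 (adjusted p 0.106 in edgeR) and Cdk8 0.28 (adjusted p 0.0503).

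**Figure D4:**
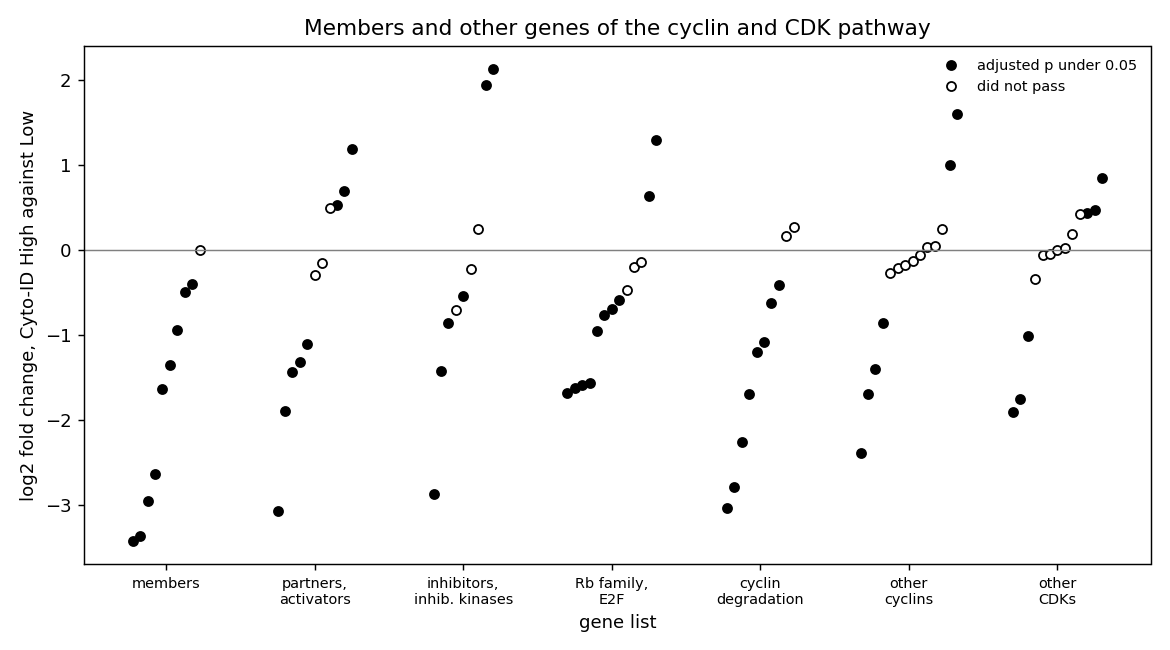
Log2 fold change, Cyto-ID High against Low, of the 10 genes and of the tested genes of the 6 pathway lists, 1 point per gene, sorted within each list. Filled points passed (edgeR adjusted p under 0.05). The cyclin degradation list has 8 filled points, all below 0, while the inhibitors span −2.87 to 2.12.

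Some counts may hold reads of other genes. In GENCODE M21, exons of 5 members overlap those of a protein-coding gene on the other strand, namely Ccna2 with Exosc9, Ccnd1 with LTO1, Ccnd3 with Bysl, Ccne2 with Ints8 and Cdk4 with Tspan31. Whether the counting used the strand is not given in the sources used here, so reads of each pair are uncertain. Ccne2 had 984 counts in all and Ints8 6607, and Ints8 had a log2 fold change of −0.48 (SE 0.17, adjusted p 0.0431 in edgeR). Tspan31 rose by 0.39 (SE 0.12, adjusted p 0.0196 in edgeR) and Bysl by 0.53 (SE 0.17, adjusted p 0.0282 in edgeR), against the direction of Cdk4 in the first case. Exosc9 and LTO1 had −0.11 and 0.02 and did not pass.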

How the data were processed

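The authors deposited raw counts, whole numbers by gene symbol, in a single matrix of 8 libraries. STAR 2.7.3, DESeq2 and the build GRCm38 are named, without their role, per the submitters' processing notes. The counting tool, annotation and strandedness are not given in the sources used here. Columns were matched to samples by animal and fraction, which also pair the libraries, since the protocol sorts 1 suspension into both. Across genes, deviations from the fraction means correlated between the libraries of an animal by 0.43, 0.32, −0.02 and 0.28 (Female1, Female2, Male1, Male2). Between different animals it was −0.37 to 0.35, and the library of the same animal correlated best with 3 of the 4 Low libraries (all but that of Male1). The pairing is taken from the names.

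The analysis used edgeR 4.0.16 under R 4.3.3: filterByExpr, trimmed mean of M values (TMM) scaling, glmQLFit and glmQLFTest of the fraction with sex as a covariate, two-sided, Benjamini-Hochberg adjustment over all 17344 tested genes and a threshold of 0.05. A standard error is the log2 fold change over the root of F. TMM factors also scale the CPM. Ratios add 0.5 to each count and use exact two-sided permutation tests. Fits were tested on simulated data. Alternatives were other scalings, filters, DESeq2 1.42.0, limma-voom (limma 3.58.1), a fit without sex, a replicate block by animal, and each library left out. Gene models are from GENCODE M21 (GRCm38), promoters from RefSeq (GRCm38.p6).

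The members and lists were chosen with earlier results of these data known. Pathway genes were named by a rule: in each list the called gene that rose most and the one that fell most, if its mean reached 5 CPM (2 per direction in the first 2 lists). The 2 genes most like each member were taken by Pearson's r. The labels give separate animals, and the spread covers biological and counting error.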

Additional observations from a re-analysis of the deposited data

Results flagged for a closer look

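In 36 groups of 4 libraries (the CPM of each member and each ratio, per fraction) Dixon's test looked for a library far from the other 3, which chance gives in about 1 in 20 groups, and 1 was found. The log2 ratio of Ccnd1 to Ccnd2 in Cyto-ID High was 0.75 in Male2, where the other 3 libraries had 1.59, 1.63 and 1.65. Ccnd2 was at 35.9 CPM in that library and at 14.3 to 18.7 CPM in the other High libraries. The same library had the lowest summed level of fibroblast markers (36.6 CPM) and the highest of suprabasal markers (238879 CPM), and their part in the ratio was not tested. Low Male2 also had the lowest log2 ratio of its fraction, −0.63. Within animals the difference of the ratio between the fractions was 1.38 to 1.97. With High Male2 left out and Low Male2 kept it was 1.98 in place of 1.76, a value that does not compare the same animals.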

How the results depend on the processing

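Over 18 alternatives Ccna2, Ccnb1, Ccnb2, Ccnd1, Ccnd2, Ccne2 and Cdk6 kept their direction and passed in each, while Ccne1 did not pass in 10 and Cdk4 in 8. The number of members called was 7 to 10, and of all genes 7269 (without Low Male1) to 10708 (library totals only). The log2 fold change of Ccnd3 changed sign without passing, to 0.0608 with relative log expression factors, 0.0607 with DESeq2 and 0.0014 with no covariate. Leaving out a library gave −0.12 to 0.11. With the animal as a replicate block 9336 genes were called, 9 members and 44 pathway genes, and no call of a member changed. Of 18 named genes that are not members, 14 kept direction and call throughout. Summing pseudogenes into Ccnb1 and Ccnd3 was added after the data were seen, and no call of a member changed. With a library left out or the replicate block, ratios were computed as values only and were not tested. Scaling by totals moved the median of all genes by −0.55 on the log2 scale. For Ccne2 in High Male2 there were 18 counts, which limits precision.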
